A study of Homo sapiens with 14 samples.

Results

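The mRNAs described here encode the proteins that make, trim, move and display peptides on MHC class I: the heavy chains HLA-B, HLA-C and HLA-E, the light chain B2M, the peptide transporter subunits TAP1 and TAP2, the bridging chaperone TAPBP (tapasin), and the aminopeptidases ERAP1 and ERAP2. These 9 genes were chosen by name from the 58434 gene symbols of the count file, with earlier results of these data known, and the set was drawn up because ERAP1 stood out in heavy translation efficiency. The study silenced DAP5 (gene EIF4G2), a relative of the initiation factor eIF4G, in MDA-MB-231, an established human triple negative breast cancer line with mesenchymal features, and asked which mRNAs depended on it for translation. Cells carried a stable doxycycline-inducible construct, either a non-silencing (NS) shRNA (shNSi) or sh Dap5 (shDAP5), and all cultures of both lines received doxycycline at 1 µg/mL for 6 days before lysis. Each line was sampled in 2 cultures as total mRNA, as light polysome mRNA (few ribosomes) and as heavy polysome mRNA (many ribosomes). A moderate pool was sequenced from the shNSi cultures alone, giving 8 shNSi and 6 shDAP5 libraries. Each construct was represented by a single stable line, so the shRNA and any other difference between the lines cannot be told apart. The shDAP5 light libraries have light in their titles but a code that in shNSi cells marks the moderate pool, and the titles were followed. The shDAP5 total libraries are titled total polysome and were taken as total mRNA.

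Class I molecules carry peptides from inside the cell to its surface, where CD8+ T cells read them. Proteasomes cut proteins in the cytosol, TAP1 and TAP2 pump the fragments into the endoplasmic reticulum, ERAP1 and ERAP2 trim their N-terminal ends, and TAPBP holds an empty heavy chain with its B2M partner beside the transporter until a peptide binds. Interferons and NF-kappa B raise transcription of most of these genes together, which is why they are often read as a single module in tumor cells.

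The libraries held between 25899838 and 30795910 counts. EIF4G2, the targeted gene, was at 1392 and 1359 CPM (counts per library size, scaled with TMM across the 14 libraries) in the total mRNA of the shNSi cultures and at 526 and 730 CPM in that of the shDAP5 cultures (log2 fold change −1.11, standard error, SE, 0.18, adjusted p = 0.0172, edgeR quasi-likelihood test). VIM, CD44, EGFR, AXL and MSN, markers of the line, were all above 100 CPM on average in shNSi total mRNA, whereas ESR1 and CDH1 stayed under 1 CPM and PGR was at 0 in every library, with ERBB3 and EPCAM near 4 CPM. The means of the line's markers were also lower in shDAP5 total mRNA. CD44 averaged 554 ± 97.9 CPM in shNSi and 248 ± 85.6 CPM in shDAP5 cells, AXL 897 ± 40.9 and 532 ± 175, EGFR 138 ± 33.8 and 89.7 ± 37.7, MSN 851 ± 93.4 and 707 ± 69.8, and VIM 5154 ± 111 and 4000 ± 56.8 CPM (SD, n = 2). Their part in the results on total mRNA was not tested. Among leukocyte markers, PTPRC and CD3E were near 0, and CD14 did not exceed 2.89 CPM. CD74, the invariant chain of MHC class II, was at 110 ± 90.0 CPM in shNSi and 114 ± 6.50 CPM in shDAP5 total mRNA.

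The upstream sequences of 4 members are shown because the heavy chain, B2M, TAP and ERAP1 mRNAs are the ones whose levels are set against each other throughout. They are the 250 bases before the RefSeq transcription start in GRCh38.p14, read 5′ to 3′ along the gene's strand. HLA-B (chr6:31357180-31357429, minus strand), TAP1 (chr6:32853705-32853954, minus) and ERAP1 (chr5:96807946-96808195, minus) are followed here by B2M (chr15:44711267-44711516, plus). Capitals mark matches, on either strand, to an interferon-response letter pattern, GAAANNGAAA, or to the kappa B motif.
HLA-B: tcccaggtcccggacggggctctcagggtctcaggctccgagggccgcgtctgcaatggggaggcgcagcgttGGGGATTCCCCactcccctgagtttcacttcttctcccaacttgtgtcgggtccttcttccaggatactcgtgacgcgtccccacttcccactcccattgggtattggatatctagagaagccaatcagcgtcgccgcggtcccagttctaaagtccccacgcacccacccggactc
TAP1: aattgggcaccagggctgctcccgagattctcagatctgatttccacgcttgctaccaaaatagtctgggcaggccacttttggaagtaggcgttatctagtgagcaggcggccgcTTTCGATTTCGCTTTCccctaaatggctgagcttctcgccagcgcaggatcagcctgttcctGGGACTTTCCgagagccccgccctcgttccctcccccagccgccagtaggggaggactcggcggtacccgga
ERAP1: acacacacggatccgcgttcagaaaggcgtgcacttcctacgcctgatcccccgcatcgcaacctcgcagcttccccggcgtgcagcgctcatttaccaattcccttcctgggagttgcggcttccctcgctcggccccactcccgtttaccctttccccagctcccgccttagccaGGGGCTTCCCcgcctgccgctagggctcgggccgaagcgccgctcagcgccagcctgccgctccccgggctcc
B2M: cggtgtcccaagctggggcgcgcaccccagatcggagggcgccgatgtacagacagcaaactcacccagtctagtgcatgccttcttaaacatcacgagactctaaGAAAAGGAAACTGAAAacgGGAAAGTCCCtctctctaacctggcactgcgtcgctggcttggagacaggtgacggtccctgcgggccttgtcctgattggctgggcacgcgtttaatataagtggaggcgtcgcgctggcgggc
The capitals in HLA-B and ERAP1 are kappa B matches. Those in TAP1 and B2M are a double interferon-type match followed by a kappa B match. Promoter windows of 300 bases (these and the 50 bases after the start) were found in RefSeq for 8 of the 9 members, all but HLA-E. The interferon-type pattern was in 5 of the 8 (B2M, TAP1, TAP2, TAPBP and ERAP1, where it lay after the start), against 3.57% of 35116 promoters. The kappa B motif was in 6 of the 8, all but TAP2 and ERAP2, against 11.3%. The CCAAT box was in 5 of the 8, against 34.6%. These matches describe letters only, and binding was not measured. The interferon-type search took only the exact pattern, so no match in HLA-B and HLA-C does not mean that an interferon element is absent there.

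Per kilobase of transcript, B2M was the most abundant member in the total mRNA of shNSi cells, at 441 ± 74.2 CPM per kb (SD, n = 2). HLA-B followed at 212 ± 160 CPM per kb, HLA-C at 84.2 ± 45.1, HLA-E at 83.1 ± 16.2 and TAPBP at 71.2 ± 23.3. The transporter and peptidase mRNAs were scarcer, with TAP1 at 15.3 ± 6.58, TAP2 at 10.01 ± 2.96, ERAP1 at 7.07 ± 1.90 and ERAP2 at 1.73 ± 0.10 CPM per kb. The culture values of HLA-B, HLA-C, HLA-E and TAPBP overlapped between neighbours in this order, as did those of TAP1, TAP2 and ERAP1, whereas B2M lay above, ERAP2 below and TAP1 below TAPBP without overlap. In shDAP5 cells the order was the same at the top and the bottom, with B2M at 391 ± 7.68 and ERAP2 at 1.10 ± 0.33 CPM per kb.

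**Figure D1:**
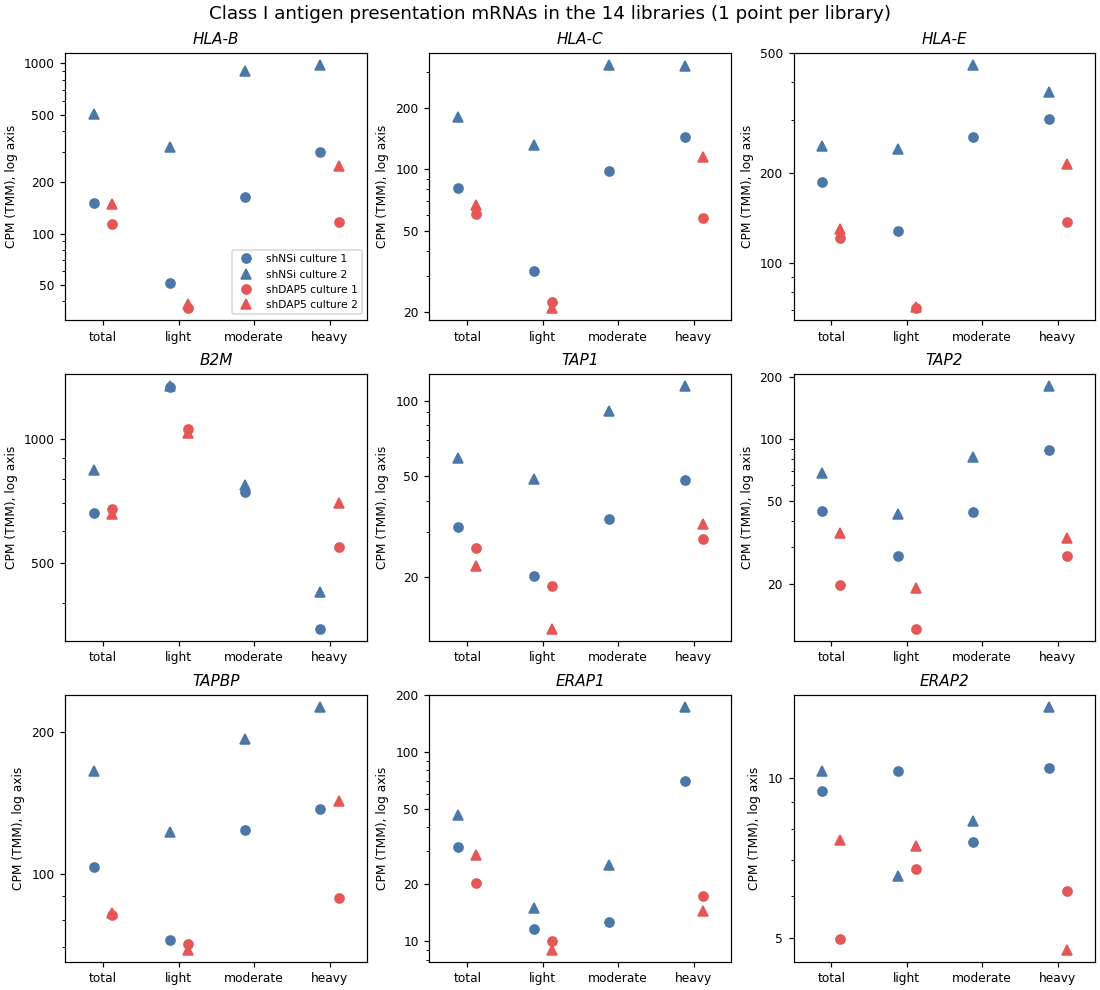
Level of each member in every library, in CPM scaled by TMM on a log axis, by fraction, with shNSi in blue and shDAP5 in red and a separate marker for each culture. In total mRNA both shDAP5 cultures lie below both shNSi cultures for all members except B2M, and ERAP1 in heavy polysomes is at 70.2 and 173 CPM in shNSi against 17.4 and 14.5 CPM in shDAP5 cultures.

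In total mRNA, all 9 members had a log2 fold change below 0 in shDAP5 against shNSi cells, with a median of −0.76, against a median of 0.01 over the 14992 genes tested. None passed the adjusted threshold of 0.05 in edgeR, which called 0.267% of genes lower and 0.0867% higher. At an unadjusted p under 0.05, 7 of 9 members were lower, against 7.01% of genes tested, and DESeq2 called 3 members lower (HLA-C, HLA-E and TAP2) at its adjusted threshold, beside 1.31% of genes. The 2 shDAP5 values were both under the 2 shNSi values in 8 of 9 members, against 20.4% of genes. For 1 gene, 2 cultures against 2 give an exact permutation test no two-sided p under 0.333, and in bulk RNA fewer expressing cells and less mRNA per cell cannot be told apart. The total mRNA libraries are also the denominator of heavy translation efficiency, so ERAP1 in total mRNA is not independent of the choice.

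Among the heavy chains, HLA-B, which presents peptides to CD8+ T cells, was at 152 and 503 CPM in the shNSi cultures and at 114 and 149 CPM in the shDAP5 cultures. Its mean was 2.44-fold lower (log2 fold change −1.28, SE 0.68, adjusted p = 0.606), and without shNSi culture 2 the log2 fold change was −0.20. HLA-C, the other classical chain, which also serves as a ligand of inhibitory receptors on NK cells, was at 81.3 and 180 CPM in shNSi and at 60.5 and 67.2 CPM in shDAP5 cultures (log2 fold change −1.01, SE 0.35, adjusted p = 0.315). HLA-E, a non-classical chain that displays signal peptides of other class I chains to NK receptors, was at 186 and 246 CPM in shNSi and at 121 and 130 CPM in shDAP5 cultures (log2 fold change −0.76, SE 0.19, adjusted p = 0.0855). The 3 heavy chains were thus lower in both shDAP5 cultures, with the shDAP5 cultures closer to each other than the shNSi cultures were. B2M, the invariant light chain that every class I heavy chain needs to leave the endoplasmic reticulum, was at 663 and 842 CPM in shNSi and at 675 and 657 CPM in shDAP5 cultures. Here the groups overlapped, and the log2 fold change was −0.15 (SE 0.17, adjusted p = 0.824).

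TAP1, the first subunit of the peptide pump, was at 31.5 and 59.0 CPM in shNSi and at 26.1 and 22.0 CPM in shDAP5 cultures, 1.84-fold lower (adjusted p = 0.191). Its partner TAP2 was at 45.0 and 68.8 CPM in shNSi and at 19.8 and 35.3 CPM in shDAP5 cultures, 2.03-fold lower (adjusted p = 0.165). TAPBP was at 103 and 166 CPM in shNSi and at 81.8 and 82.6 CPM in shDAP5 cultures, 1.60-fold lower (adjusted p = 0.181). The 3 genes of the loading step were lower in both shDAP5 cultures without overlap. ERAP1, the aminopeptidase that trims long precursors toward the length class I molecules hold, was at 31.5 and 46.3 CPM in shNSi and at 20.4 and 28.5 CPM in shDAP5 cultures, 1.56-fold lower (adjusted p = 0.278). ERAP2, a relative with a different preference for N-terminal residues, was at 9.46 and 10.3 CPM in shNSi and at 4.97 and 7.62 CPM in shDAP5 cultures, 1.54-fold lower (adjusted p = 0.379).

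These differences must be read against the gap between the shNSi cultures. All 9 members were higher in shNSi culture 2 than in culture 1 in total mRNA, with a median difference of 0.61 on the log2 scale, against a median absolute difference of 0.23 over 12887 genes. HLA-B was 1.73 higher on that scale, HLA-C 1.15 and TAP1 0.91, and these 3 exceeded the 95th percentile of all genes, 0.80. CD74 showed the same gap, at 46.3 CPM in culture 1 and 174 CPM in culture 2. Between the shDAP5 cultures the members differed by a median of 0.24. Without shNSi culture 1 the members' median change in total mRNA was −1.01 and 6 were called lower, beside 2.12% of 15634 genes. Without shNSi culture 2 it was −0.35, with 8 of 9 below 0 and none called. The part of culture state in the change was not tested.

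**Figure D2:**
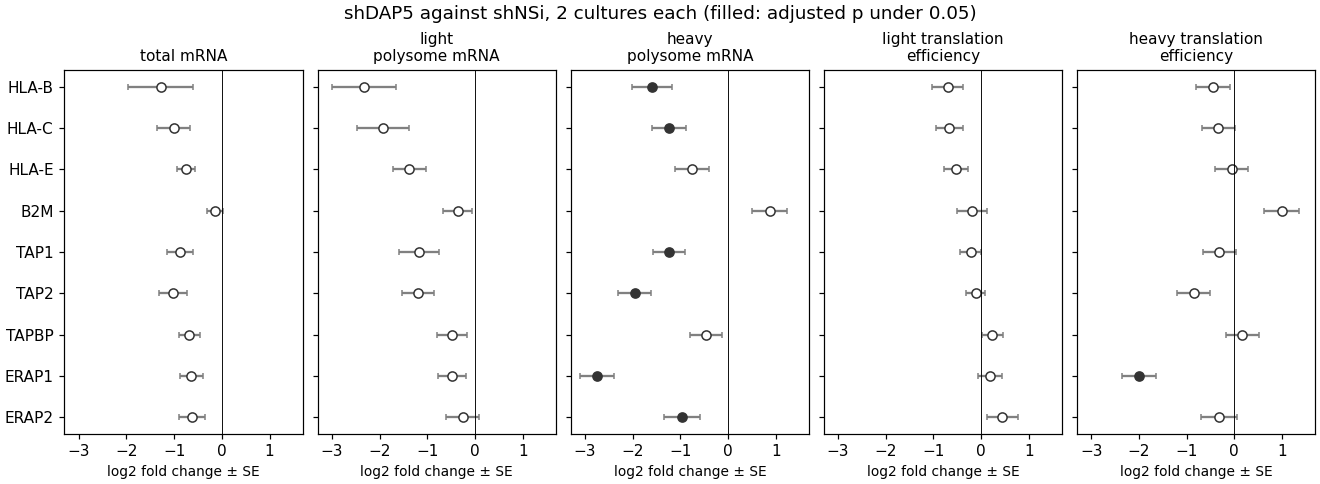
Log2 fold change of each member in shDAP5 against shNSi cells with its standard error, in total mRNA, light and heavy polysome mRNA, and light and heavy translation efficiency, with filled points for an adjusted p under 0.05 in edgeR. No member is filled in total mRNA, light polysomes or light translation efficiency, and ERAP1 is the member filled in heavy translation efficiency, the measure behind the choice of this set.

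Light polysome mRNA, which the choice of the set did not use, showed its lowest values among the members in the heavy chains. All 9 log2 fold changes were below 0, with a median of −1.17 against −0.01 over 15529 genes. edgeR called none of the members and no gene at all at the adjusted threshold (0% lower and 0% higher). At an unadjusted p under 0.05, 5 of 9 members were lower (HLA-B, HLA-C, HLA-E, TAP1 and TAP2), against 5.17% of genes, and DESeq2 called 2 lower (HLA-C and HLA-E), beside 0.489% of genes. The 2 shDAP5 values were both under the 2 shNSi values in 8 of 9 members, all but ERAP2, against 20.2% of genes.

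HLA-B in light polysomes was at 51.3 and 324 CPM in shNSi and at 36.7 and 38.5 CPM in shDAP5 cultures (log2 fold change −2.33, SE 0.68, adjusted p = 0.478). HLA-C was at 32.0 and 132 CPM in shNSi and at 22.4 and 21.1 CPM in shDAP5 cultures (log2 fold change −1.93, SE 0.55, adjusted p = 0.472). HLA-E was at 128 and 240 CPM in shNSi and at 71.1 and 71.4 CPM in shDAP5 cultures (log2 fold change −1.37, SE 0.35, adjusted p = 0.433). As in total mRNA, shNSi culture 2 was the high one, and shNSi culture 1 lay nearer to the shDAP5 cultures. The remaining members had log2 fold changes from −1.19 (TAP2, adjusted p = 0.472) and −1.17 (TAP1, adjusted p = 0.536) to −0.25 (ERAP2, adjusted p = 0.842), with TAPBP and ERAP1 both at −0.48 and B2M at −0.36. The members' median was −0.45 without shNSi culture 2, with HLA-E and TAP2 called lower beside 3.05% of 16193 genes. It was −1.51 without shNSi culture 1, with 7 members called lower beside 16.3% of 16190 genes. When the shNSi moderate pool stood in for shNSi light, a choice made relevant by the code of the shDAP5 light libraries, the median was −2.01. With that control 6 members were called lower (HLA-B, HLA-C, HLA-E, TAP1, TAP2 and TAPBP), beside 13% of 15431 genes, and B2M was at 0.47.

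Translation efficiency was the ratio of polysome to total mRNA, and its change was tested as the interaction of fraction and shRNA. In light translation efficiency edgeR called no member and no gene (0% lower, 0% higher), and DESeq2 called none. At an unadjusted p under 0.05, 2 of 9 members were lower, HLA-B (log2 change −0.71, SE 0.31, adjusted p = 0.879) and HLA-C (−0.67, SE 0.28, adjusted p = 0.879), against 3.01% of genes. The light to total log2 ratio of HLA-B was −1.59 and −0.68 in the shNSi and −1.68 and −1.99 in the shDAP5 cultures, and that of HLA-C was −1.36 and −0.49 in the shNSi and −1.47 and −1.71 in the shDAP5 cultures. Both shDAP5 values were below both shNSi values, with shNSi culture 1 close to the shDAP5 cultures. Lower values without overlap were found in 5 of 9 members and in 2776 of 15967 genes. Higher values without overlap were found in 1 member and in 2969 genes. Without shNSi culture 2 the change was −0.27 for HLA-B and −0.25 for HLA-C, and without shNSi culture 1 it was −1.16 and −1.11, both called, beside 7.51% of 16467 genes called lower. The other members lay between −0.53 (HLA-E) and 0.44 (ERAP2), and the median of the 9 was −0.20. With the shNSi moderate pool in place of shNSi light, 5 members were called lower in light translation efficiency (HLA-B, HLA-C, HLA-E, TAP1 and TAP2), beside 13.8% of 15859 genes, and the median was −0.90.

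Heavy polysome mRNA and heavy translation efficiency were the measures by which ERAP1 drew attention, and their values are given as a description. Light translation efficiency shares the total mRNA libraries with heavy translation efficiency. ERAP1 in heavy polysomes was at 70.2 and 173 CPM in shNSi and at 17.4 and 14.5 CPM in shDAP5 cultures, 6.67-fold lower. TAP2 was at 88.5 and 181 CPM in shNSi and at 27.3 and 33.2 CPM in shDAP5 cultures, 3.89-fold lower. HLA-B was at 301 and 978 CPM in shNSi and at 117 and 249 CPM in shDAP5 cultures, 3.04-fold lower. Heavy polysome levels of these 3 mRNAs did not overlap between the lines, as was so for 7 of 9 members lower in shDAP5 cells and for 30.9% of all genes. B2M went the other way, at 347 and 427 CPM in shNSi and at 547 and 701 CPM in shDAP5 cultures, higher without overlap like 36.4% of genes. Of the 9 members, 6 passed the adjusted threshold as lower in heavy polysomes and 0 as higher, beside 16.7% and 14.2% of 14270 genes. Without shNSi culture 2 the log2 change of HLA-B moved from −1.60 to −0.56, and TAP2 and ERAP1 alone stayed called (8.42% of genes lower). Without shDAP5 culture 1 TAP1, TAP2 and ERAP1 were called (12.2%), and without shDAP5 culture 2 no member was (0.00672%).

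ERAP1 was the single member past the adjusted threshold in heavy translation efficiency, beside 8.23% of 15374 genes lower and 4.85% higher. Its log2 change was −1.99 (SE 0.36), place 58 from the lowest of all genes tested. Among called genes whose total mRNA averaged 10 CPM or more, it lay between COL4A1 at −2.05, just below it, and SLC5A3 at −1.98, just above. TAP2 was at −0.85 (SE 0.34) and B2M at 1.00 (SE 0.36). The 6 remaining members lay between −0.44 (HLA-B) and 0.17 (TAPBP).

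**Figure D3:**
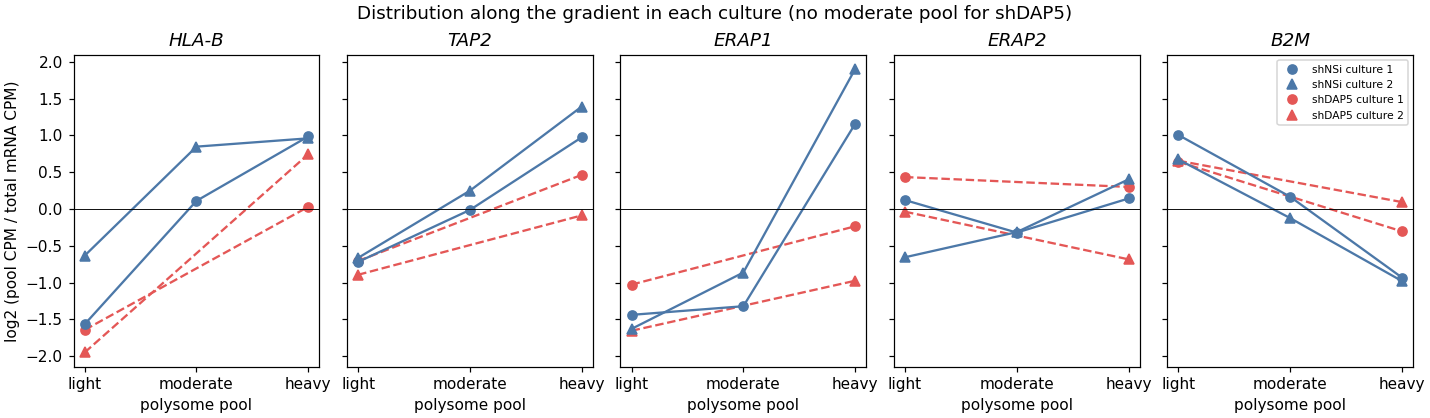
Log2 ratio of each polysome pool to the total mRNA of the same culture for HLA-B, TAP2, ERAP1, ERAP2 and B2M, with shNSi in blue (solid lines) and shDAP5 in red (dashed lines, no moderate pool). ERAP1 rises to 1.16 and 1.90 in shNSi heavy polysomes but stands at −0.23 and −0.97 in shDAP5 heavy polysomes, and B2M declines from light to heavy.

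Along the gradient of shNSi cells the members split by where their mRNA sat. Heavy against light polysomes, 7 members were higher in heavy (33.8% of 15514 genes were called higher), B2M was lower (31.9% were called lower) and ERAP2 passed in neither direction. ERAP1 had the largest log2 difference of the members, 2.99 (SE 0.29), which shares its heavy libraries with the measure behind the choice and is given as a description. HLA-B was 1.97 higher (SE 0.34, adjusted p = 0.000172), TAP2 1.79 (SE 0.25, adjusted p = 2.79e-05), HLA-C 1.62 (SE 0.30, adjusted p = 0.000284) and TAP1 1.16 (SE 0.23, adjusted p = 0.000592). HLA-E at 0.85 (adjusted p = 0.0212) and TAPBP at 0.82 (adjusted p = 0.0122) were enriched less. B2M, whose coding sequence of 357 nt is the shortest of the set, fell by 1.88 on the log2 scale (SE 0.33, adjusted p = 0.000203). With no term for the culture, 3 of these calls remained in that comparison, those of B2M, TAP2 and ERAP1, beside 49.4% of genes called in either direction. Without TMM scaling the calls of HLA-E and TAPBP were lost, beside 69.4% of genes called.

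The moderate pool placed the members differently from each other. Moderate against heavy in shNSi cells, ERAP1 was lower by a log2 difference of −2.59 (SE 0.28) and TAP2 by −1.02 (SE 0.24, adjusted p = 0.0042), B2M was 1.03 higher (SE 0.33, adjusted p = 0.0227), and 23.1% and 12.9% of genes were called lower and higher. The other members lay between −0.55 (ERAP2, adjusted p = 0.14) and 0.10 (HLA-E, adjusted p = 0.818), and none of them passed. With no term for the culture, the calls of TAP2 and B2M were lost, beside 18.1% of genes called in either direction. ERAP1 in the moderate pool was at 12.6 and 25.4 CPM, near its light level of 11.6 and 15.0 CPM, so that in shNSi cells the heavy pool alone stood above total mRNA for ERAP1. HLA-E in the moderate pool was at 264 and 456 CPM, beside 302 and 371 CPM in the heavy pool, which overlapped.

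In shDAP5 cells the same 7 members were higher in heavy than in light polysomes (25.9% of 15619 genes called higher), B2M was lower (24.8% called lower) and ERAP2 passed in neither direction. HLA-B was 2.17 higher (SE 0.26, adjusted p = 0.000162), HLA-C 1.90 (SE 0.27, adjusted p = 0.00034) and HLA-E 1.24 (SE 0.22, adjusted p = 0.00107). TAP1 was 0.97 higher and TAP2 0.96, and TAPBP 0.67. B2M fell by 0.78 on the log2 scale (SE 0.24, adjusted p = 0.0179). ERAP1 was 0.70 higher (SE 0.23), at 17.4 and 14.5 CPM in heavy and 10.02 and 9.06 CPM in light polysomes. Without TMM scaling the calls of ERAP1 and TAPBP were lost, beside 48.4% of genes called in either direction. The heavy to light ratio of ERAP1 was thus smaller in shDAP5 than in shNSi cells, by a log2 difference of −2.23 (SE 0.42). This comparison of ratios, made after the values were seen, rests on the heavy libraries that drew attention to ERAP1 and passed in no other member, beside 5.21% of 15878 genes called lower and 1.54% called higher. For HLA-B, HLA-C and HLA-E the same difference was 0.21 (SE 0.51), 0.28 (SE 0.47) and 0.42 (SE 0.46). The comparison of ratios was not run with the shNSi moderate pool, whose code the shDAP5 light libraries carry. Moderate against heavy in shNSi cells was −0.45 for HLA-B, −0.22 for HLA-C, 0.10 for HLA-E and −2.59 for ERAP1. How far the differences between the lines rest on the light label was not tested.

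The ERAP1 value depended on which shNSi pool was the control. With the shNSi moderate pool in place of shNSi heavy, the log2 change in heavy translation efficiency of ERAP1 was 0.46, and with the shNSi heavy and moderate pools summed it was −1.03, and neither was called. With the moderate pool as control, ERAP1 in shDAP5 heavy polysomes differed by −0.24 on the log2 scale, against −2.74 with the heavy pool. Leaving out shNSi culture 2 moved its change in heavy translation efficiency to −1.61 and ended the call, and leaving out the other cultures gave values from −2.40 to −1.66, all called. Without TMM scaling, or with no term for each culture, neither ERAP1 nor any other gene was called in heavy translation efficiency.

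The change in heavy translation efficiency went with coding length over all genes, and B2M, TAP2 and ERAP1 lay in that order among the members. Over 12484 genes, Spearman's rho between coding length and the change in heavy translation efficiency was −0.71, a description across genes, which share libraries and are not independent replicates. B2M, at 357 nt, sat at the short end with its higher value, the heavy chains (1074 to 1116 nt) and TAPBP (1512 nt) near the middle, and TAP2 (2106 nt) and ERAP1 (2844 nt) at the long end. TAP1 (2424 nt) and ERAP2 (2880 nt) did not follow, at −0.32 each, close to the much shorter HLA-C at −0.33, and TAPBP at 0.17 lay above the shorter heavy chains. ERAP1 and ERAP2 thus had almost the same coding length and differed by more than 1 log2 unit in this measure. Offsets for coding length fitted per library were an alternative added after the data were seen. With them ERAP1 was at −1.37 and called (2.66% of 12477 genes were called lower), TAP2 at −0.44 and B2M at 0.13. This refit used the libraries behind the choice of the set, so the ERAP1 value is a description and no support. The part of coding length in it was not tested.

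**Figure D4:**
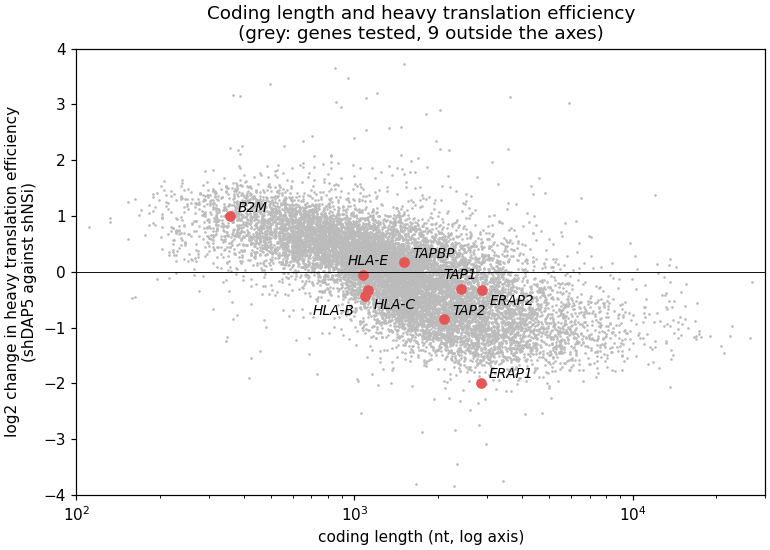
Coding length in nt on a log axis against the log2 change in heavy translation efficiency, with genes tested in grey (12475 plotted, 9 outside the axes) and the 9 members in red. The cloud of genes slopes down with length, and ERAP1, at 2844 nt, lies at its lower edge while ERAP2, at 2880 nt, lies inside it.

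Over the 14 libraries, the log2 CPM of HLA-B and HLA-C had a Pearson's r of 0.994, the highest of any pair of members. HLA-C was also the nearest member to HLA-E (r = 0.961), TAP1 (0.962), TAP2 (0.902) and TAPBP (0.960). ERAP1 was nearest to TAP2 (0.855), as was ERAP2 (0.684). B2M was negatively correlated with every other member, from −0.25 with ERAP2 to −0.74 with ERAP1. Among 9391 genes with a mean of at least 10 CPM, the 5 most like ERAP1 were GLG1 (r = 0.995), CLSTN1 (0.990), GANAB (0.990), CPD (0.989) and STT3A (0.989), with coding lengths of 2115 to 4140 nt. These correlations are descriptions over libraries that share cultures and fractions.

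Other genes of the pathway were taken from a list of 36, of which 35 could be tested in total mRNA. There edgeR called none of them, with 6 lower and 0 higher at an unadjusted p under 0.05 (7.01% of all genes were lower by that measure), and a median log2 fold change of −0.25. The peptide-loading chaperones came closest to the members, with a median of −0.71 over 5 genes. PDIA3 (ERp57, the oxidoreductase of the loading complex) was at −0.90 (SE 0.21, adjusted p = 0.0733), CALR (calreticulin) at −0.85 (SE 0.22, adjusted p = 0.116) and CANX (calnexin) at −0.61 (SE 0.19, adjusted p = 0.170). The immunoproteasome and activator genes had a median of −0.11 over 5 genes, and the 13 regulators and interferon receptors one of 0.11. In that last group the transcriptional activators NLRC5, IRF1 and RFX5 were at 0.12 (adjusted p = 0.904), 0.28 (adjusted p = 0.752) and 0.37 (adjusted p = 0.428). In light polysomes edgeR called none of the 35 tested, 2 were lower and 0 higher at an unadjusted p under 0.05 (PDIA3 at −1.27, adjusted p = 0.490, and MICA at −0.63, adjusted p = 0.559), a share near the 5.17% of all genes, and the median was −0.39.

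In heavy translation efficiency, the comparison behind the choice of the set, 9 of the 36 were called lower and 2 higher, beside 8.23% and 4.85% of all genes. The 4 lowest of those called were the cytosolic peptidase TPP2 (−1.74, SE 0.35), the insulin-regulated aminopeptidase LNPEP (−1.68, SE 0.38), CANX (−1.62, SE 0.38) and PDIA3 (−1.56, SE 0.35). The 2 higher were PSMB9, a catalytic subunit of the immunoproteasome (1.15, SE 0.35), and RFXANK, a subunit of the RFX transcription factor (1.11, SE 0.35). The coding sequences of TPP2 and LNPEP are 3786 and 3075 nt, those of CANX and PDIA3 are 1776 and 1515 nt, nearer to the median of 1437 nt over genes tested, and those of PSMB9 and RFXANK are 657 and 780 nt.

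**Figure D5:**
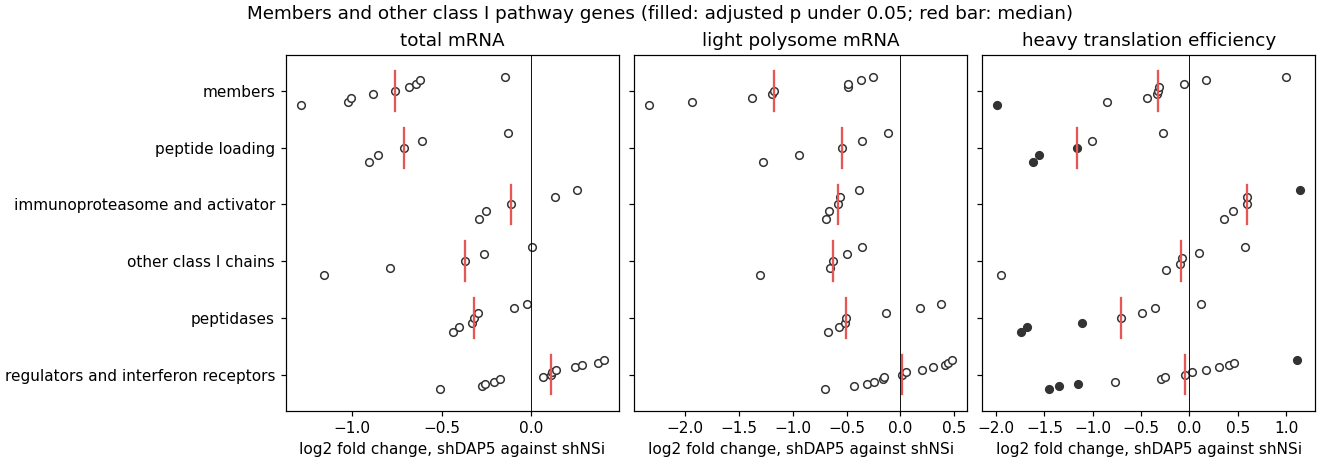
Log2 fold change in shDAP5 against shNSi cells for the members and 5 groups of other class I pathway genes, in total mRNA, light polysome mRNA and heavy translation efficiency, 1 point per gene, filled where the adjusted p is under 0.05, with a red bar at the group's median. Members and peptide-loading genes lie left of 0 in total mRNA with medians of −0.76 and −0.71, while regulators centre near 0.

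Reads can be shared between near-identical genes. Of the 50-base windows of each transcript, 35.8% of those of TAP2 were also found in transcripts of 2 other genes, 6.71% of those of HLA-C, 5.13% of HLA-E and 2.54% of HLA-B, against 0% for B2M, TAPBP and ERAP1. TAP2 and, less so, the heavy chains are therefore uncertain to that extent. TAP1 overlaps PSMB9 and ERAP1 overlaps CAST on the opposite strand. HLA-B and HLA-C overlap each other on the same strand in GENCODE v29, as TAP2 does a gene listed as AL669918.1, so counts in the shared parts could fall to either gene, and whether counting used strand is not stated, although the deposited table's name carries the mark rev, which may stand for reverse-strand counting.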

How the data were processed

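RNA sequencing of MDA-MB-231 cells (14 libraries, each group with 2 cultures that the study calls independent) was deposited by the authors as whole-number read counts per gene symbol without normalization. The submitters' processing notes name STAR 2.6.0a, hg19 and limma. The name of the deposited table names featureCounts and carries the marks rev, which may stand for reverse-strand counting, and cleaned. The cleaning step, the counting settings and the annotation are not given in the sources used here. Every library had at least 25899838 counts, and the number of cultures limits the precision.

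Genes were filtered with filterByExpr scaled by TMM and tested by robust quasi-likelihood in edgeR 4.0.16 (R 4.3.3), with Benjamini-Hochberg adjustment over all genes tested and a threshold of 0.05. Total, light and heavy mRNA were each fitted on 4 libraries, translation efficiency on 8 with a term for each culture, and pools within a line on all its libraries with a culture term. edgeR stood in for limma on quantile-normalized values, as the files hold counts. Levels are CPM after TMM over 16235 genes, and CPM per kb used GENCODE v29 transcripts, whose build differs from hg19, so no gene positions are given from it. On simulated counts with a log2 change of 1.5, 77% of 191 changed genes were recovered in total mRNA (12.5% of calls false), 59.2% of 196 in light polysomes (6.45% false) and 58.9% of 197 in heavy translation efficiency (5.69% false).

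The members and gene lists were chosen with earlier results of these data known. Named genes are the 9 members, EIF4G2, the called genes of the 36 other pathway genes (at most the 4 lowest and 4 highest) and the 5 genes most correlated with ERAP1. Pathway genes named without passing that rule, and the genes beside ERAP1 in heavy translation efficiency, were picked after their values were seen. Alternatives were DESeq2 1.42.0, limma 3.58.1 on log2(CPM + 1), library size without TMM, other filters, the replicate number as a block, each culture left out and other control pools. Coding-length offsets and the crossed block were added after the data were seen. The labels code the shNSi cultures R11 and R3 (replicates 1 and 2) and the shDAP5 cultures R4 and R5, without saying what the codes mark. The study describes 2 full sets done independently, but no source used here says which cultures formed a set or that same-numbered cultures of the 2 lines were handled together, while pools with the same number within a line come from the same culture.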

Additional observations from a re-analysis of the deposited data

Results flagged for a closer look

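The difference in heavy to light log2 ratio between shDAP5 and shNSi cells was tested with edgeR as an interaction. Among the 9 members it passed the adjusted threshold for ERAP1 alone, beside 5.21% of 15878 genes called lower and 1.54% called higher. For ERAP1 the difference was −2.23 (SE 0.42, adjusted p = 0.0175). This value shares its heavy libraries with the measure by which ERAP1 drew attention, so it is a description and no independent support. The test was not run with the shNSi moderate pool, whose code the shDAP5 light libraries carry. ERAP2 differed by −0.83 (SE 0.46, adjusted p = 0.268), TAP2 by −0.79 (SE 0.40, adjusted p = 0.218) and B2M by 1.14 (SE 0.53, adjusted p = 0.184), none of which passed. Groups of 2 cultures are too small for a check of single outlying samples.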

How the results depend on the processing

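Of the member values recomputed under the alternatives, 574 kept their direction and side of the threshold, 67 gained a call, 45 lost one and 25 changed sign. The share of all genes called in either direction moved too and stands here in parentheses. In total mRNA edgeR called 0 members, DESeq2 3 (1.82%), no filter on low counts 5 (2.19%) and the replicate block 4 (HLA-B, HLA-C, HLA-E and TAP2; 2.43%), and leaving out each culture gave 0 to 6 (6 without shNSi replicate 1, 2.47%). In heavy polysomes 6 became 0 with the moderate pool as control (0.344%) and 3 with coding-length offsets (12.1%), and 0 to 7 with a culture left out (0 without shDAP5 replicate 2, 0.0134%). In light polysomes 0 became 2 with DESeq2 (0.676%), 5 without a filter (0.899%), 3 with the replicate block (0.837%) and 6 with the moderate pool as control (25.5%), and 0 to 7 with a culture left out (7 without shNSi replicate 1, 28.9%). In heavy translation efficiency 1 became 2 with DESeq2 (13.8%), with at least 10 counts in every library (19.1%) and with limma (2.65%), 0 without TMM, without a term for each culture and with the moderate or the summed control (0% in each), 3 with the crossed replicate block (26.9%), and 0 to 3 with a culture left out (0 without shNSi replicate 2, 0.025%, and 3 without shDAP5 replicate 1, 28.5%). In light translation efficiency 0 became 5 with the moderate pool as control (27.5%) and 0 to 4 with a culture left out (4 without shNSi replicate 1, 12.3%, with ERAP2 higher). Within shNSi cells, no replicate block left 3 of 8 calls heavy against light (49.4%) and 1 of 3 moderate against heavy (ERAP1; 18.1%). Without TMM, 6 of 8 calls heavy against light were left in either line (69.4% in shNSi and 48.4% in shDAP5 cells), and the median log2 change of all genes was −0.54 (shNSi) and −0.22 (shDAP5) there, 0.45 moderate against heavy, 0.34 in heavy polysomes and 0.30 in heavy translation efficiency. EIF4G2 was at −1.07 without TMM (adjusted p = 0.0501) and −1.08 with limma (adjusted p = 0.143), and −1.37 to −0.90 with a culture left out, not called without shDAP5 replicate 1 (adjusted p = 0.680). The cause of these moves was not tested.

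The pairing check gave correlations of same-numbered cultures of −0.10 (total mRNA), −0.20 (heavy translation efficiency) and between −0.02 and 0.05 elsewhere, so the numbers were not taken to pair the lines. With the crossed pairing 0 members were called in total mRNA (0.474% of genes), and 3 members in heavy translation efficiency (26.9% of genes).

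Values whose sign changed were called under neither setting, except ERAP1 in heavy translation efficiency. With the moderate pool as control, heavy polysome B2M was at −0.27 and light polysome B2M at 0.47, heavy translation efficiency gave B2M −0.15, TAP2 0.048, ERAP1 0.46 and ERAP2 0.10, and light translation efficiency gave B2M 0.64, TAPBP −0.46 and ERAP1 −0.24. With the summed control, ERAP2 was at 0.00077 in heavy translation efficiency. With coding-length offsets, heavy polysome B2M was at −0.14, and heavy translation efficiency gave TAP1 0.21 and ERAP2 0.31. Without TMM, HLA-E was at 0.16 in heavy translation efficiency, ERAP2 at −0.051 heavy against light and HLA-C and TAPBP at 0.12 and 0.21 moderate against heavy in shNSi cells, and limma gave HLA-E 0.18 in heavy translation efficiency. With each culture left out in turn, B2M ranged from −0.33 to 0.020 in total mRNA (highest without shNSi replicate 2) and ERAP2 from −0.55 to 0.092 in light polysomes (highest without shNSi replicate 1). In heavy translation efficiency, HLA-C ranged from −0.79 to 0.11, HLA-E from −0.35 to 0.24, TAPBP from −0.20 to 0.53 and ERAP2 from −0.79 to 0.13, each with its ends set by the shDAP5 cultures, as were those of ERAP1 in light translation efficiency (−0.14 to 0.50). Leaving out a culture within 1 line was not run for comparisons of its pools, since no residual degrees of freedom remain.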
